A study of Mus musculus with 8 samples.

Results

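The genes described here encode the proteins of the cytosolic ribosome. They were taken by symbol: every non-control probe whose accession belongs to a gene now named Rpl or Rps with a number, to the stalk genes Rplp0 to Rplp2, or to Rpsa, leaving out pseudogenes and the Rps6k kinases. This gave 118 probes for 81 genes, 50 of the large subunit and 31 of the small, among 32053 features on the array. Each gene is represented by its brightest probe, and all 81 were well above background in Cy5 on all 8 arrays.

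The cells were mammary tumour lines from FVB mice of the polyoma middle T (PYMT) model, and every culture had received 50 uM camptothecin (CPT), a topoisomerase I poison that stalls replication forks, for 36 h. In the first experiment the wild-type line WTA carried the LKO1 lentiviral vector with a hairpin against Snd1 (3 arrays) or the empty vector (3 arrays), both selected with puromycin. In the second, the Mtdh-knockout line KO2 was rescued with wild-type Mtdh or with Mtdh carrying W391D, a mutation that weakens Snd1 binding, each with an ires2-GFP marker used for sorting (1 array each). The hairpin groups thus share 1 line and the rescue groups another, only 1 hairpin was used, its control was an empty vector, and no untreated cells were analysed here. Sample RNA was labelled with Cy5 and hybridised against Cy3-labelled reference RNA from 11 mouse cell lines, so each value is a log2 ratio of the sample over that reference. Separate cultures behind the replicates are not stated, so the p-values speak only of the scatter among these arrays, part or all of which may be technical.

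A ribosome joins a small subunit, which reads the message, to a large subunit, which makes the peptide bond, and its proteins are made in matched amounts because each enters a subunit once or in a fixed number of copies. Their messages are abundant in dividing cells, and most begin with a C followed by a run of pyrimidines, the 5′ terminal oligopyrimidine (TOP) tract, through which mTORC1 and Larp1 set their translation and stability. When ribosome assembly is disturbed, the 5S RNP, which holds Rpl5 and Rpl11, binds Mdm2 and stabilises p53. A few ribosomal proteins also have paralogs with restricted or regulated expression, such as Rpl22l1 and Rps27l.

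The start-site windows of 8 genes are shown because these genes gave the clearest falls (Rpl28, Rps9), the largest fall and rise (Rpl38, Rpl12), or pair a core gene with its paralog (Rpl22 with Rpl22l1, Rps27 with Rps27l). Each runs from 45 bases before the RefSeq start to 15 bases from the start on, in GRCm38.p6, 5′ to 3′ on the gene's strand, and capitals mark the letters CTTTC, a common form of the pyrimidine tract.
Rpl28 (chr7:4792920-4792979, plus strand): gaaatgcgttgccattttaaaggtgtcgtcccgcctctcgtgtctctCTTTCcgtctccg
Rps9 (chr7:3703996-3704055, plus strand): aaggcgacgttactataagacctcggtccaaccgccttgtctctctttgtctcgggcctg
Rpl38 (chr11:114668535-114668594, plus strand): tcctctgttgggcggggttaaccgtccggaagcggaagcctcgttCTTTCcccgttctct
Rpl22 (chr4:152325681-152325740, plus strand): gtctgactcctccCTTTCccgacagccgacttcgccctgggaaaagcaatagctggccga
Rpl22l1 (chr3:28805463-28805522, plus strand): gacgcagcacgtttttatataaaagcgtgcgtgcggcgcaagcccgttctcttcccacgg
Rps27 (chr3:90213634-90213693, minus strand): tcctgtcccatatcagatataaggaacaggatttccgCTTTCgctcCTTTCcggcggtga
Rps27l (chr9:66946041-66946100, plus strand): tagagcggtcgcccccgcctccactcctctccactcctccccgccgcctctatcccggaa
Rpl12 (chr2:32961667-32961726, plus strand): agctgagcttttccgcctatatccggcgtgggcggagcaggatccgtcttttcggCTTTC
The marked letters fell near the start in Rpl28, Rpl38, Rps27 and Rpl12 and farther upstream in Rpl22, and they were not in the windows of Rps9, Rpl22l1 and Rps27l. Among the 62 ribosomal protein genes that the RefSeq table held, 19 (30.6%) had CTTTC within 20 bases of a start on the gene's strand, against 6.44% of 27025 genes. By subunit, 15 of 38 large-subunit and 4 of 24 small-subunit genes had it. The letters CCGGAAG, an ETS-factor motif searched on both strands of the 300 bases around each start, were in 26 of the 62 (41.9%) against 9.93% of all genes. The 2 motifs can share only an end letter. Both counts describe letters in annotated windows and were not tested.

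These transcripts were bright on the arrays. The median Cy5 signal was 158 on knockdown replicate 1 and 161 on vector replicate 1, and 262.5 to 363 on the other arrays. The median background was 61 to 72, and no spot was saturated. The members' median brightness (mean log2 signal) was 16.3, against 8.22 over the features tested. The hairpin's target was measured first: Snd1 had log2 ratios of -3.23, -3.33 and -3.44 with the hairpin and -2.49, -2.40 and -2.43 with the empty vector, so the groups did not overlap and the target fell by 0.90 ± 0.06 (SE). Of 11 mammary epithelial markers, all above background, the mean log2 ratio was 1.34 to 1.36 on the knockdown arrays and 1.64 to 1.75 on the vector arrays, with 8 lower and 1, Krt19, higher. Fibroblast markers had means of -3.12 to -3.05 against -4.07 to -4.03, with 6 of 9 higher in the knockdown and Fap below the filter. For leukocyte markers the means were -2.15 to -2.13 and -2.15 to -2.06 (1 of 7 higher, 2 lower, Itgam below the filter), and for endothelial markers 0.47 to 0.62 and 0.52 to 0.60 (1 of 5 higher, 2 lower, Tek below the filter). Over all features tested, 23.7% were called higher and 21.1% lower at the same adjusted p under 0.05 (limma). The part of these markers in the results below was not tested. In bulk RNA fewer cells of a type and less RNA per cell cannot be told apart. Knockdown and vector replicate 1 lay on a first slide, the other 4 arrays on a second, and each rescue array on its own.

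Snd1 knockdown changed the transcripts of ribosomal proteins by small amounts in both directions. Of the 81 genes, 10 rose and 26 fell at an adjusted p under 0.05 with limma (n = 3 and 3), and 45 were not called. Together 44.4% of the members were called, next to 44.8% of all 25674 features tested. The background was 23.7% for features called higher and 21.1% for features called lower, against 12.3% and 32.1% of the members. Differences ran from -0.54 for Rpl38 to 0.36 for Rpl12 on the log2 scale. By its brightest probe no member passed 1.5-fold, which 12.2% of all features did. The 95% interval lay within 1.5-fold either way for 71 members (87.7%, against 80.6% of features). The 3 knockdown and 3 vector values did not overlap for 43 members, 31 lower and 12 higher, or 53.1%, against 53.2% of all features. The members' median difference was -0.07 and that of all features 0.02.

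The lean toward lower values was seen in the ratios and hardly in the Cy5 channel alone, which was quantile-normalized. That step gives every array the same distribution of signals. The members lie near its bright end (median brightness 16.3, against 8.22 over the features tested). A fall shared by bright genes would be partly removed, so these values cannot show that the sample channel lacked the lean. With the Cy5 channel alone, 3 members were called higher (Rpl12, Rpl27 and Rpl7a) and 2 lower (Rps9 and Rpsa), where 14.1% of all features were called higher and 16.2% lower, and the members' median was -0.01, as was that of all features. The reference channel itself was 0.02 higher at the members' median in the knockdown arrays. With the Cy5 channel alone and the replicate number as a block, a setting chosen after seeing the data, 9 were higher and 14 lower, against 22.1% and 24.9% of all features. On the ratios, the replicate block gave 12 higher and 34 lower, 56.8% of the members against 50.3% of all features. Without knockdown replicate 2 or 3 the number called higher was 5 in each case.

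**Figure D1:**
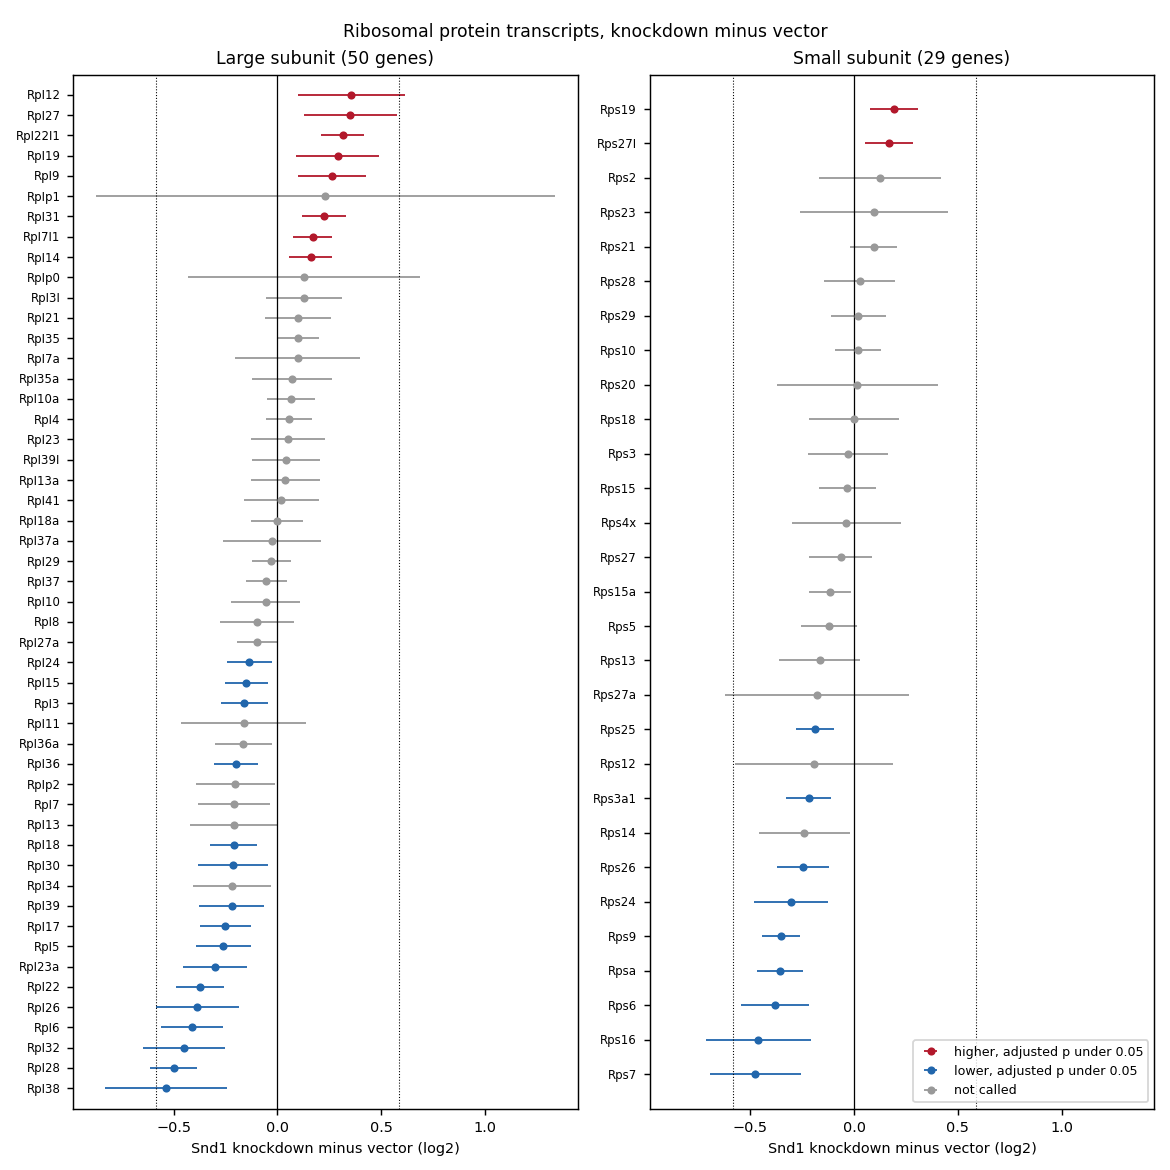
Knockdown minus vector log2 difference of 50 large-subunit and 29 small-subunit genes, with the 95% interval from limma (3 arrays per group). Dotted lines mark 1.5-fold. Points run from -0.54 (Rpl38) to 0.36 (Rpl12) without passing a dotted line, and the widest interval is that of Rplp1.

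Large and small subunit were close to each other. In the large subunit 8 genes rose (16%) and 16 fell (32%), with a median difference of -0.06. In the small subunit 2 rose (6.45%) and 10 fell (32.3%), with a median of -0.12. Over all features tested, 23.7% were called higher and 21.1% lower, with a median of 0.02. Median log2 ratios of the large subunit were -0.80, -0.77 and -0.80 on the knockdown arrays and -0.81, -0.66 and -0.70 on the vector arrays. Those of the small subunit were -0.79, -0.68 and -0.70 on the knockdown arrays and -0.70, -0.53 and -0.56 on the vector arrays. The knockdown and vector ranges overlapped in both subunits, because vector replicate 1 lay among the knockdown arrays or below them. On every one of the 8 arrays the large subunit's median was below the small subunit's, by 0.01 to 0.13 in the knockdown and vector arrays, 0.14 in the wild-type rescue and 0.04 in the W391D rescue. Since each protein's probe differs, these medians compare arrays, not the amounts of the subunits. Without vector replicate 1 the medians were -0.14 (large) and -0.16 (small). With the Cy5 channel alone they were -0.022 (large) and -0.0038 (small), so the order of the subunits turned.

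Of the 5 paralogs among the members, 3 rose (60%) and none fell, and the median was 0.17. Over all features tested, 23.7% were called higher and 21.1% lower. Rps4l, which RefSeq lists as a transcribed pseudogene and the rule therefore leaves out, differed by -0.03 and was not called (adjusted p = 0.624). Rpl22l1, the paralog of Rpl22, had log2 ratios of -1.80, -1.77 and -1.79 in the knockdown and -2.04, -2.14 and -2.10 in the vector arrays. The groups did not overlap, and the gene rose 1.24-fold (0.31 ± 0.04 SE, adjusted p = 0.000605). It was below the reference in every sample, and lower still on the rescue arrays (-2.49 and -2.53). Rpl22 itself, a large-subunit protein that binds RNA and in mice represses the Rpl22l1 message, went the other way. Its ratios were -0.61, -0.61 and -0.57 in the knockdown and -0.31, -0.17 and -0.20 in the vector arrays, a fall by 0.37 ± 0.05 (adjusted p = 0.000417). A second, dimmer Rpl22 probe with vector ratios near -2.76 fell by 0.64, past 1.5-fold. Both calls were lost with the Cy5 channel alone (adjusted p = 0.158 and 0.0844) and held in the other 20 of 21 alternatives.

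Rps27l, a paralog of Rps27 known as a p53 target, had ratios of 0.63, 0.69 and 0.59 in the knockdown and 0.41, 0.48 and 0.52 in the vector arrays. Every knockdown array was above every vector array, and the gene rose 1.12-fold (0.17 ± 0.05, adjusted p = 0.0247), a call that 6 of 21 alternatives lost. Rps27, a small-subunit zinc-finger protein, had -0.92, -0.79 and -0.79 against -0.89, -0.73 and -0.69. Its groups overlapped and it was not called (-0.07 ± 0.07, adjusted p = 0.482). Rpl7l1, the paralog of Rpl7, had the tightest values of the rising genes, with 0.78, 0.76 and 0.80 in the knockdown and 0.63, 0.60 and 0.61 in the vector arrays. It rose 1.13-fold (0.17 ± 0.04, adjusted p = 0.00903), and its second probe rose by 0.28. Rpl7 had -0.98, -1.02 and -1.13 against -0.98, -0.70 and -0.83, and missed the threshold (adjusted p = 0.055, or 0.037 with the replicate block).

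The other paralogs were not called. Rpl3l, known from striated muscle, had 0.04, 0.37 and 0.16 in the knockdown and 0.03, 0.07 and 0.09 in the vector arrays, overlapping groups with an adjusted p of 0.249. Rpl39l, known from testis, was far below the reference at -5.54, -5.74 and -5.71 against -5.69, -5.81 and -5.61 (adjusted p = 0.699), and its second probe was above background on only 3 arrays. The core partners of both were lower: Rpl3, which lies beside the peptidyl transferase centre, fell by 0.16 ± 0.05 (adjusted p = 0.0277), a call lost in 10 of 21 alternatives, and Rpl39, which lines the exit tunnel, by 0.22 ± 0.07 (adjusted p = 0.0292). Without the paralogs, 7 of 76 core genes rose (9.21%) and 26 fell (34.2%), with a median of -0.11. In the core small subunit, 1 of 30 rose (3.33%), Rps19, and 10 fell (33.3%). The shares over all features were 23.7% higher and 21.1% lower, with a median of 0.02.

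Among the core genes that rose, Rpl12 and Rpl27 gave the largest differences. Rpl12, at the base of the stalk, had log2 ratios of -0.71, -0.34 and -0.37 in the knockdown and -0.998, -0.72 and -0.78 in the vector arrays. The lowest knockdown array, replicate 1, just exceeded the highest vector array, and the difference was 1.28-fold (0.36 ± 0.11, adjusted p = 0.031). Rpl27, a large-subunit protein mutated in some Diamond-Blackfan anaemia, had -0.12, 0.15 and 0.16 against -0.45, -0.20 and -0.21, a 1.27-fold rise (0.35 ± 0.10, adjusted p = 0.0188). In both genes replicate 1 was the lowest array of each group, and the difference was similar on the first slide (0.29 and 0.32) and on the second (0.39 and 0.36). Rpl19, which forms a bridge between the subunits, had 0.12, 0.30 and 0.19 against -0.27, -0.01 and 0.02 and rose by 0.29 ± 0.09 (adjusted p = 0.0261). Its second probe rose by 0.36.

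Rpl9, Rpl31 and Rpl14 rose by less. Rpl9, of the large subunit near the factor-binding site, had -1.13, -0.94 and -0.91 in the knockdown and -1.34, -1.19 and -1.23 in the vector arrays (0.26 ± 0.07, adjusted p = 0.0171). Rpl31, which sits by the mouth of the exit tunnel, had -0.68, -0.71 and -0.72 against -0.87, -0.97 and -0.93 (0.22 ± 0.05, adjusted p = 0.00438), whereas its second probe differed by 0.02 and was not called. Rpl14 had -1.01, -1.06 and -1.02 against -1.14, -1.23 and -1.19 (0.16 ± 0.04, adjusted p = 0.0191). The small-subunit gene Rps19, needed for maturation of the small subunit's RNA and the gene most often mutated in Diamond-Blackfan anaemia, had -0.38, -0.44 and -0.51 against -0.60, -0.65 and -0.65 (0.19 ± 0.05, adjusted p = 0.0144). In each of these genes the 2 groups did not overlap, which was a condition for naming them. The calls of Rpl9, Rpl14, Rps19 and Rpl12 were lost in 5 to 8 of 21 alternatives, the omission of single arrays among them.

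**Figure D2:**
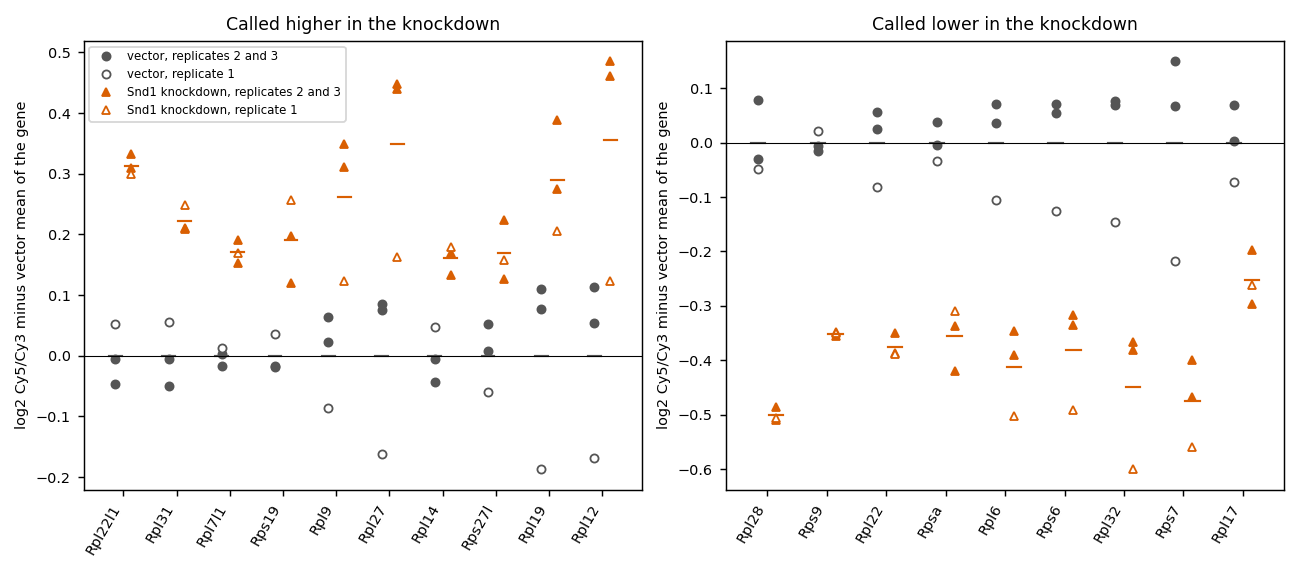
Log2 Cy5/Cy3 on each knockdown array (triangles) and vector array (circles) for the 10 genes called higher and 9 of those called lower, after subtracting the gene's vector mean. Open symbols are replicate 1, on the first slide, and short lines are group means. Only genes without overlap were chosen, so groups are separate in all 19, and the narrowest gap is in Rpl12.

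The falls with the smallest p-values were those of Rpl28 and Rps9. Rpl28, a large-subunit protein that budding yeast lacks, had log2 ratios of -1.25, -1.23 and -1.25 in the knockdown and -0.79, -0.66 and -0.77 in the vector arrays. The knockdown arrays lay within 0.03 of each other and well below the vector arrays, a fall by 0.50 ± 0.05 (1.41-fold, adjusted p = 6.66e-05). Rps9, a small-subunit protein at the message's entry channel, had -1.45, -1.45 and -1.46 against -1.08, -1.11 and -1.12, a fall by 0.35 ± 0.04 (adjusted p = 0.000168). The call of Rps9 held in all 21 alternatives, with differences of -0.37 to -0.33. So did that of Rpsa, a small-subunit protein also known as the laminin receptor precursor. Rpsa had -0.88, -0.91 and -0.99 against -0.60, -0.53 and -0.57 (a fall by 0.36 ± 0.05, adjusted p = 0.000448), and its second probe fell by 0.29.

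Further small-subunit genes fell. Rps6, the target of the S6 kinases downstream of mTORC1, had -1.29, -1.14 and -1.12 in the knockdown and -0.93, -0.73 and -0.75 in the vector arrays (a fall by 0.38 ± 0.07, adjusted p = 0.00271). Rps7, which also binds Mdm2, had -1.48, -1.32 and -1.39 against -1.14, -0.85 and -0.77 (a fall by 0.48 ± 0.09, adjusted p = 0.00378). In both genes the highest knockdown array was below the lowest vector array, and replicate 1 was the lowest of its group. Other small-subunit genes called lower included Rps16, Rps24, Rps25, Rps26 and Rps3a1, with falls by 0.19 (Rps25) to 0.46 (Rps16). The second probe of Rps25 differed by 0.0002 and that of Rps3a1 by -0.18, and neither was called.

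In the large subunit, Rpl38, known in mice for its part in the translation of Hox messages, had the largest fall. Its ratios were 0.36, 0.58 and 0.57 in the knockdown and 0.74, 1.197 and 1.19 in the vector arrays, a fall by 0.54 ± 0.13 (1.45-fold, adjusted p = 0.0089). Even so it stayed above the reference on every array, the highest member in the vector group. Rpl32 had -1.29, -1.05 and -1.07 against -0.83, -0.62 and -0.61 (a fall by 0.45 ± 0.08, adjusted p = 0.00285). Rpl6 had -1.58, -1.47 and -1.42 against -1.18, -1.01 and -1.04 (a fall by 0.41 ± 0.06, adjusted p = 0.000983). Rpl17, near the mouth of the exit tunnel, had -1.52, -1.55 and -1.45 against -1.33, -1.19 and -1.25 (a fall by 0.25 ± 0.05, adjusted p = 0.00505). None of these groups overlapped, which for Rpl32, Rpl6 and Rpl17 was a condition for naming them. With the Cy5 channel alone none of the 4 passed, with adjusted p-values of 0.0801 to 0.234.

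The 5S RNP and the stalk gave fewer calls. Rpl5 had log2 ratios of -0.77, -0.85 and -0.92 in the knockdown and -0.66, -0.52 and -0.59 in the vector arrays. Its groups did not overlap, it fell by 0.26 ± 0.06 (adjusted p = 0.00613), and a second probe fell by 0.22, but with the Cy5 channel alone the difference was -0.05 (adjusted p = 0.829). Its partner Rpl11 had -0.90, -0.70 and -0.40 against -0.70, -0.41 and -0.41. Those groups overlapped, and the difference of -0.16 had an interval from -0.46 to 0.14 (adjusted p = 0.363). The stalk proteins Rplp0, Rplp1 and Rplp2, which recruit the translation factors that split GTP, were not called. For Rplp2 the ratios were -0.37, -0.30 and -0.24 against -0.28, 0.01 and -0.02 (-0.20 ± 0.08, adjusted p = 0.0802, or 0.016 with the replicate block).

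Rplp1 showed how far the arrays of 1 group could differ. It had -0.76, 0.43 and 0.79 in the knockdown and -1.02, 0.36 and 0.43 in the vector arrays, so both replicate 1 arrays lay over 1 log2 unit below the other 4. The difference of 0.23 ± 0.48 was not called (adjusted p = 0.744), while with the replicate block the adjusted p was 0.0158. With the Cy5 channel alone it was -0.02. Rplp0 had -0.43, 0.18 and 0.19 against -0.67, 0.17 and 0.05, with the same 2 arrays lowest (0.13 ± 0.24, adjusted p = 0.716). Across the members, the arrays of the first slide were lower than those of the second in 64 of 81 genes (79.0%, against 49.5% of features), by a median of 0.13. Both replicate 1 arrays were below all other 4 arrays in 24 members (29.6%, against 6.5% of features), of which 14 belonged to the small subunit. This shift exceeded the group difference in 31 members (38.3%, against 30.2% of features).

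The genes with the largest slide shifts were mostly not called. After Rplp1 (-1.39) and Rplp0 (-0.70) came Rps27a (-0.54), which is made as a fusion with ubiquitin, Rps20 (-0.47), Rps12 (-0.45) and Rps23 (-0.43), a protein of the decoding centre. Rps27a had -0.79, -0.32 and -0.36 in the knockdown and -0.74, -0.10 and -0.10 in the vector arrays (adjusted p = 0.506, or 0.0292 with the block). Rps12 had -0.51, -0.19 and -0.19 against -0.49, 0.10 and 0.08 (adjusted p = 0.395, or 0.0375 with the block). The shift was larger in brighter members, with r = -0.47 between shift and brightness over the 81 genes, which share the same arrays, against -0.04 over all features. It lay mainly in the sample channel, whose median shift over members was -0.12, against -0.03 in the reference channel. Within slides the median group difference of the members was -0.04 on the first and -0.09 on the second, and 67 of 81 (82.7%, against 79.0% of features) had the same sign on both.

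**Figure D3:**
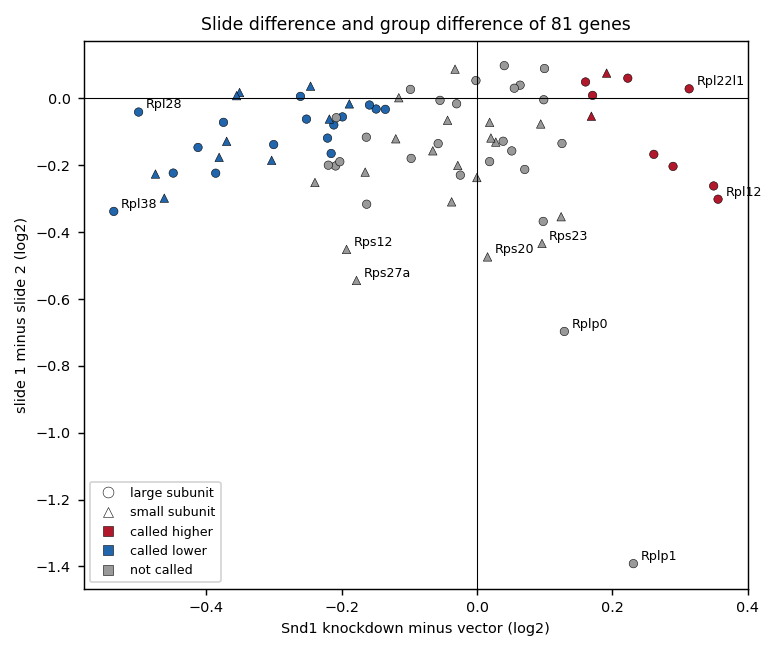
Difference between the slides (mean of the replicate 1 arrays minus mean of the 4 arrays of the second slide, log2) against knockdown minus vector (log2), for 50 large-subunit genes (circles) and 31 small-subunit genes (triangles). Most points, 64 of 81, lie below 0 on the vertical axis, and Rplp1 at -1.39 and Rplp0 at -0.70 lie lowest.

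Probes of 1 gene mostly moved alike. Of 29 genes with more than 1 probe above background on all 8 arrays, 26 had probes within 0.2 of each other in the group difference, 4 had probes of opposite sign and none was called in both directions. Wider spreads were those of Rpl31 (0.21) and Rpl22 (0.27). The widest (0.52) was that of Rpl23, whose protein lies where Eif6 binds the large subunit. Its brighter probe gave -1.42, -1.37 and -1.39 in the knockdown and -1.62, -1.34 and -1.37 in the vector arrays, overlapping and not called (0.05 ± 0.08). The dimmer probe gave -1.04, -0.95 and -0.94 against -1.61, -1.51 and -1.54, a 0.57 difference with an adjusted p of 3.23e-05 among all probes.

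The rest of the machinery was read from lists. Over all features, 23.7% were called higher, 21.1% were called lower, and 12.2% passed 1.5-fold. Of 62 ribosome biogenesis factors, 15 rose and 22 fell (median -0.04), with Utp18, of the small-subunit processome, up by 0.62, the nucleolar protein Ncl up by 0.45, and Tcof1, which acts in ribosomal DNA transcription, having fallen by 0.77. Of 15 genes of the RNA polymerase I machinery, 6 rose and 4 fell (median 0.12). The initiation factor Rrn3 rose by 0.39 and the largest subunit Polr1a fell by 0.58. Mitochondrial ribosomal proteins, which serve another ribosome, gave 16 higher (20.5%) and 38 lower (48.7%) of 78 (median -0.14). Of these 78, 9 (11.5%) passed 1.5-fold, near the share of all features. Of 14 further genes with TOP messages, mostly translation factors, 5 rose and 4 fell (median -0.07, mean 0.002), from Hnrnpa1, which fell by 0.60, to Eif4b, up by 0.99. Of 17 regulators of TOP messages and mTORC1, 5 rose and 6 fell (median -0.07): Larp1 fell by 0.31, Mtor by 0.38 and Myc by 0.69, while Eif4ebp1 rose by 0.53 and Sesn2 by 0.96. Among ribosomal proteins that the symbol rule leaves out, Fau (0.48 ± 0.13) and Rpl36al (0.17 ± 0.05) rose and Rack1 was not called.

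The second experiment asked whether Mtdh that binds Snd1 poorly gives another profile than wild-type Mtdh, and for ribosomal proteins the 2 arrays were close. With 1 array per group there is no replicate check and no test. None of the 81 members differed by 1.5-fold between W391D and wild-type rescue, and over all features the share was 0.167%. Differences ran from -0.29 for Rpl23 to 0.26 for Rpsa, with a median of -0.03, and the central 95% of all 27019 features ran from -0.28 to 0.26. At 1.2-fold, 6 members (7.41%) were past the line, all of them lower in W391D, against 5.31% of all features (817 lower and 619 higher). The lowest after Rpl23 (-1.22 in wild type, -1.51 in W391D) were Rps23 (-0.18 and -0.46), Rps13 (-0.21 and -0.49), Rpl26, which is known to bind the p53 message (-0.54 and -0.81), and Rps20 (-0.03 and -0.29). Among the highest after Rpsa (-1.09 and -0.83) were Rpl28 (-1.13 and -0.90), Rpl35a (-1.03 and -0.83) and Rpl14 (-1.76 and -1.57). Large-subunit genes had a median of -0.02 and small-subunit genes of -0.04. With the Cy5 channel alone 1 member, Rpl21, passed 1.5-fold (0.64), where its ratios differed by 0.17. In that channel W391D minus wild type was -0.03 for Rpl23, -0.05 for Rps23, 0.14 for Rps13, -0.06 for Rpl26 and -0.34 for Rps20. It was 0.35 for Rpsa, 0.09 for Rpl28, -0.04 for Rpl35a and -0.02 for Rpl14. Most of the differences named above were thus small or of the other sign in the sample channel.

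The 2 lines differed more than the 2 rescues. Against the mean of the vector arrays, the wild-type rescue array was past 1.5-fold lower in 5 members, all of the large subunit, and past 1.5-fold higher in none. The background was 3.69% lower and 7.21% higher. Rpl4, whose loop narrows the exit tunnel, was -1.35 in the wild-type and -1.22 in the W391D rescue, below the vector arrays at -0.43, -0.41 and -0.52. Rpl35a was -1.03 and -0.83 against -0.31, -0.07 and -0.16. Rpl24, a bridge protein between the subunits, was -1.26 and -1.22 against -0.60, -0.49 and -0.52, and Rpl21 was -1.50 and -1.33 against -0.77, -0.69 and -0.79. Rpl7a was -1.15 and -1.01 against -0.79, -0.43 and -0.42. In all 5 genes, picked as past 1.5-fold lower in the wild-type rescue, both rescue arrays were below every vector array. Of the 81 members, 3 (Rpl4, Rpl35a and Rpl24) were past 1.5-fold lower on both and none higher. Over all features, 8.39% were past 1.5-fold the same way on both. Line, rescue construct, sorting and slide changed together between these arrays and cannot be told apart. The vector arrays enter this comparison and the knockdown comparison alike. Across the 81 members the 2 rescue arrays correlated at 0.989, a description over genes that share both arrays.

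**Figure D4:**
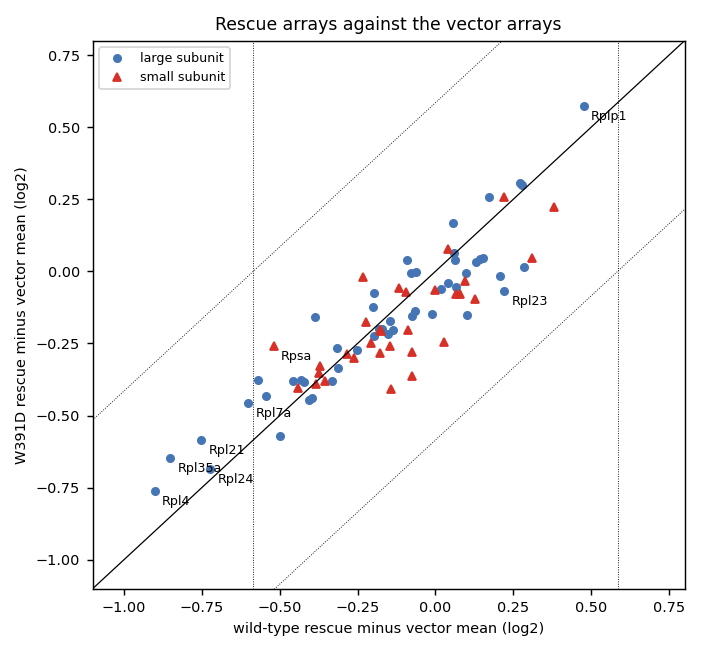
Wild-type rescue (horizontal) and W391D rescue (vertical), each as log2 ratio minus the mean of the 3 vector arrays, which both axes share. The diagonal marks equal values, dotted lines mark 1.5-fold from the vector mean (vertical) or between the rescues (slanted). The points lie along the diagonal between its dotted lines, and Rpl4, Rpl35a, Rpl21, Rpl24 and Rpl7a lie left of the lower vertical line.

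Relative to the reference the members were low. In the vector group 74 of 81 had a mean ratio below 0 (91.4%, against 49.8% of features), and the members' median ratio was -0.62. The lowest were Rpl39l (-5.70 ± 0.10 SD, n = 3), Rpl22l1 (-2.10 ± 0.05), Rpl3 (-1.78 ± 0.06), Rpl10a (-1.71 ± 0.03), which forms the mobile stalk at the exit site, and Rpl23 (-1.45 ± 0.16). The highest were Rpl38 (1.04 ± 0.26), Rpl7l1 (0.61 ± 0.02), Rps27l (0.47 ± 0.06), Rpl41 (0.13 ± 0.10), the smallest ribosomal protein, and Rpl3l (0.06 ± 0.03). Among the latter, Rpl41 had 0.01, 0.26 and 0.17 in the knockdown and 0.01, 0.21 and 0.16 in the vector arrays, which overlapped. Rpl10a overlapped too, with -1.57, -1.68 and -1.69 against -1.73, -1.67 and -1.72. Rpl41 and Rpl3l, neighbours in this order, differed by less than the spread of Rpl41. These ratios depend on each gene's level in the reference lines, so their order is not one of transcript amount. Rpl3l was dim (mean brightness 6.83), as was Rpl39l in Cy5 (log2 signal 7.61 to 8.01), which limits both ratios.

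**Figure D5:**
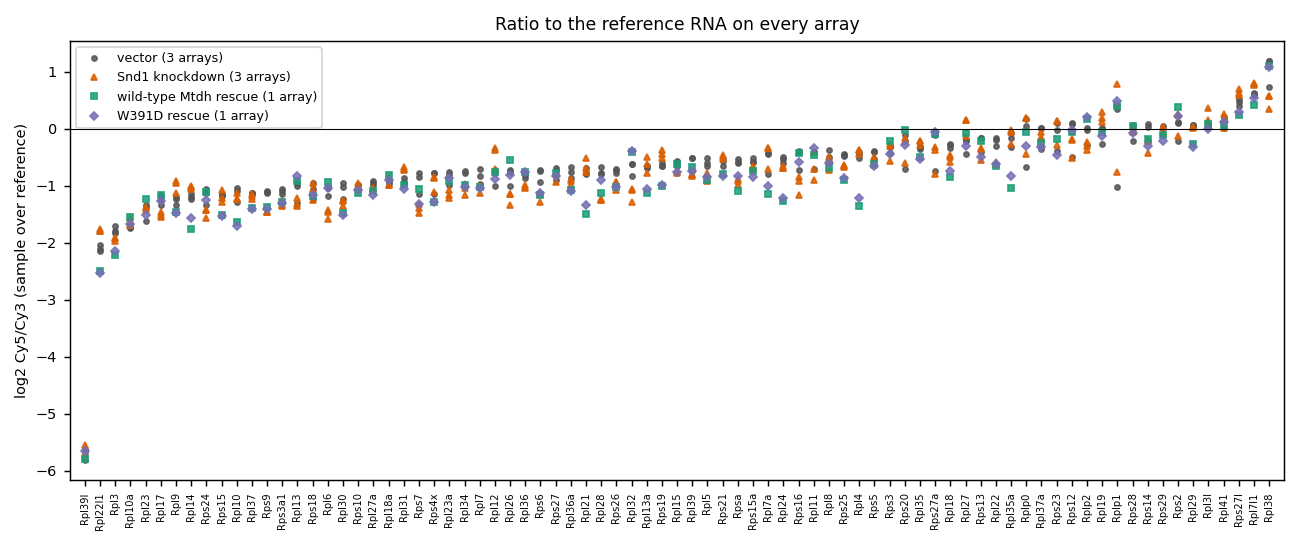
Log2 Cy5/Cy3 of 79 genes on all 8 arrays, ordered by the vector mean. Each symbol is 1 array, and the line at 0 marks equality with the reference RNA. Rpl39l stands alone near -5.70, and 7 genes have vector means above 0.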

How the data were processed

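RNA of 8 samples was measured on 2-colour Agilent arrays, with groups taken from the labels. Deposited spot intensities are median pixel values, extracted with Agilent Feature Extraction 11.0.1.1 per the file headers (9.5.3.1 per the submitters' processing notes). The deposited log10 ratios of these files and the log2 ratios of the authors' value table served as alternatives. In R 4.3.3, limma 3.58.1 subtracted background by normexp with an offset of 50 and normalized each array's log ratios by loess. For the Cy5 channel alone, the background-corrected Cy5 signals of all arrays were quantile-normalized instead. Accessions were matched to current RefSeq symbols, since the files hold no gene names, which named 27668 of 41174 probes, and the brightest probe stood for a gene. Knockdown and vector were compared with limma (lmFit, eBayes, Benjamini-Hochberg) on features whose Cy5 signal exceeded background clearly (the software's flag) on 3 or more of 6 arrays, a fit tested on simulated data. The number of arrays limits the precision. Deviations of same-numbered arrays correlated at 0.597, 0.325 and 0.338, so the replicate number was a block in an alternative. Differently numbered arrays of the second slide correlated at 0.39 and 0.247, so number and slide cannot be told apart there. Members, lists and the naming rule (10 smallest adjusted p in each direction without overlap, the 5S RNP, stalk, paralogs, Rpsa, and the 5 highest and lowest in rescue difference and in vector level) were chosen with earlier results of these data known; other genes were named after their values were seen. Some genes that the rule took are not reported here by name. Of 84 coding genes that fit the symbol rule, 3 had no matched probe. Promoter windows are RefSeq's (GRCm38.p6).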

Additional observations from a re-analysis of the deposited data

How the results depend on the processing

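Counts and medians were recomputed under other normalizations, filters, probe rules, blocks and thresholds, and with each array left out. The number called higher (10) was 6 with median centring in place of loess, 3 with the Cy5 channel alone, 3 at an adjusted p under 0.01 and 4 with at least 1.2-fold added, and 5 to 10 with 1 array left out. The number called lower (26) was 16 with scaling between arrays, 2 with the Cy5 channel alone (14 with the replicate block added, a setting chosen after seeing the data), 40 of 117 when every probe was tested on its own, and 14 with at least 1.2-fold added. Leaving out 1 array gave 21 to 35. No member passed 1.5-fold between knockdown and vector in the main fit. That count was 1 when every probe was tested on its own and with the second slide only. It was also 1 without knockdown replicate 1 and without vector replicate 1. With 1 array left out, the large-subunit median (-0.06) ranged from -0.139 without vector replicate 1 to -0.0329 without vector replicate 2, and with the Cy5 channel alone it was -0.022. The small-subunit median (-0.12) was -0.0038 with the Cy5 channel alone, with or without the block, and -0.162 to -0.0699 with 1 array left out. The median rescue difference (-0.03) was -0.153 with median centring, and the number past 1.5-fold (0) was 1 with the Cy5 channel alone and 6 at 1.2-fold. Rpl39l reversed to -0.171 (adjusted p = 0.0332) with the Cy5 channel alone and the replicate block. The replicate block gave 12 higher and 34 lower and changed no call beyond those printed with it above, the loss of Rpl24 (adjusted p = 0.0529), and new calls of Rpl13, Rpl34, Rpl36a, Rps2, Rps13 and Rps14. The cause of these differences was not tested. Every member passed the background flag on all 8 arrays, so that filter dropped none. Rpl3l was still dim, with a mean brightness of 6.83 against a median of 8.22 over the features tested. Rpl39l had Cy5 signals of 7.61 to 8.01 (log2). The offset of 50 weighs more on such dim signals, so it bounds the ratios of both.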
